A study of Homo sapiens with 11 samples.

Results

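The mRNAs of the oxidative phosphorylation system were followed in ARPE-19, a human cell line derived from the retinal pigment epithelium (RPE), in 5 groups of libraries. Members were taken by symbol: the NDUF subunit families, SDHA to SDHD, UQCR, COX4 to COX8, ATP5 and the mitochondrial ND, CO, ATP and CYB genes. Of 205 matching symbols, 104 were left out as ending in P or in P and digits, the form of most pseudogene names, and 101 members remained of 60605 features listed. MT-ATP6 and MT-ATP8 end in this way but are genes that the rule asks for, and both were kept. Of the members, 88 were encoded in the nucleus and 13 in the mitochondrial genome. A filter of at least 10 normalised counts in at least 2 libraries passed 94 of them, 81 nuclear and all 13 mitochondrial. COX4I2, COX6A2, COX7B2, COX8C, ATP5MF-PTCD1, ATP5MGL and UQCRFS1-DT did not pass.

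Cells had been made into stable lines that carried an open reading frame (ORF) and were taken after 4 days of its expression. The ORF was GFP, a fluorescent protein and the control (n = 3 libraries), Oct4, Sox2, Klf4, or Oct4, Sox2 and Klf4 together (OSK; n = 2 libraries each). The library names of the 4 factor lines also carry the element mC (Oct4-mC, for example), which the labels do not explain and the GFP names lack, so each comparison with GFP may differ in it as well. Every group, GFP included, thus carried an ORF, and the labels do not name the promoter that drove it, the species of the ORFs, or whether a line was a clone. Nothing states that replicates came from separate cultures, so p-values measure the spread between these libraries, which may be technical.

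Oxidative phosphorylation passes electrons from NADH (complex I) and succinate (complex II) through ubiquinone, complex III, cytochrome c and complex IV to oxygen, and complex V uses the proton gradient so formed to make ATP. The mitochondrial genome encodes core subunits of complexes I, III, IV and V as messages cut from long transcripts of both strands, while all of complex II and every other subunit come from nuclear genes. RPE cells rely on oxidative metabolism and leave much of the glucose that crosses them to the photoreceptors.

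Recovered reads ran from 15053300 to 19791775 per library. GFP replicate 1 and OSK replicate 1 stood apart, with 42956 and 32493 features detected against 25853 to 26971 in the other 9 libraries, and results are given without them where that changes them. POU5F1 (Oct4), SOX2 and KLF4 were each highest in the lines labelled for them, for example POU5F1 at 67326 and 66823 normalised counts with Oct4 and 276, 252 and 262 with GFP. Of 18 RPE markers, 14 passed the filter. RPE65, the visual cycle isomerase, had 0 to 4.63 normalised counts in every library. The summed RPE marker level was 33748 to 37342 with GFP, 18685 to 19284 with Oct4, 21631 to 22297 with Sox2, 26208 to 29337 with Klf4 and 16190 to 16473 with OSK, so the RPE markers moved with the groups. The sum of 10 mesenchymal markers was 21135 to 26443 with GFP and 30201 to 31287 with Sox2, and was lower with Klf4 at 16302 to 16503 and with OSK at 11456 to 12509, while Oct4, at 23862 to 24999, lay within the GFP range. Of the 14 RPE markers tested, 9 fell and 2 rose with Oct4, and 7 and 1 with Sox2. The counts were 5 and 2 with Klf4, and 10 and 2 with OSK. Of all features, 17.2% fell and 20.1% rose with Oct4, and 19.9% and 21.7% with Sox2. With Klf4 the shares were 16.0% and 17.6%, and with OSK 20.0% and 19.7%. The part of these marker differences in the results below was not tested.

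Promoter sequences of the nuclear members were searched for short motifs. RefSeq (GRCh38.p14) gave a window of 300 bases, from 250 before to 50 after the start, for 70 of the members, and 7 motifs were searched on both strands. Members without a window, among them COX7A1, ATP5F1B and ATP5F1D, were not searched. The palindromic NRF1 core motif was in 4 of the 70 (5.71%) and in 1.36% of all 27305 windows. The shorter NRF1 motif TGCGCATG, which overlaps it, was in 11.4% against 2.26%. The ETS motif CCGGAAG, bound by GABP among others, was in 20 members (28.6%) against 10.7%, and the YY1 motif AAGATGGCG in 8 (11.4%) against 1.85%. For the factors expressed here, the Oct4 octamer ATGCAAAT was in 0 of 70 windows against 1.80%, the SOX motif ACAAAG in 12.9% against 16.0%, and the KLF motif GGGTGTGG in 1 window, that of UQCRH, against 3.22%. A match is a description of letters in the window and not a measured site. The windows compared were not matched for GC content. Windows are printed for 5 members on which later results turn, with motif matches in capitals. NDUFS1 (chr2:206159395-206159694, minus strand) and COX6B1 (chr19:35648073-35648372, plus strand) hold the ETS motif. SDHD (chr11:112086623-112086922, plus strand) holds the NRF1 core, the shorter NRF1 motif and an ETS match. NDUFB4 (chr3:120596086-120596385, plus strand) holds the NRF1 core, the shorter NRF1 motif and a SOX match. COX6B2 (chr19:55354670-55354969, minus strand), the isoform partner of COX6B1, holds none of the 7.
NDUFS1: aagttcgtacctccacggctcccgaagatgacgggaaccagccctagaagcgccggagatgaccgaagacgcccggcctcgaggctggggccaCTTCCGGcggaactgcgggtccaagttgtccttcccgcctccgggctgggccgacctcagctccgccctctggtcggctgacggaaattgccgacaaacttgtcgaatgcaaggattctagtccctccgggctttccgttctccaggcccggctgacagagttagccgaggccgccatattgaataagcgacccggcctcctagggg
COX6B1: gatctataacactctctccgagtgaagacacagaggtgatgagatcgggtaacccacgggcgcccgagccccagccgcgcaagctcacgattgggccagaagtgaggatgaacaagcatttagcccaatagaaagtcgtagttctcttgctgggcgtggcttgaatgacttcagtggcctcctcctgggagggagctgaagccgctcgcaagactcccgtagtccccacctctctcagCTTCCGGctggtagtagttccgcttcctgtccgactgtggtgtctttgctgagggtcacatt
COX6B2: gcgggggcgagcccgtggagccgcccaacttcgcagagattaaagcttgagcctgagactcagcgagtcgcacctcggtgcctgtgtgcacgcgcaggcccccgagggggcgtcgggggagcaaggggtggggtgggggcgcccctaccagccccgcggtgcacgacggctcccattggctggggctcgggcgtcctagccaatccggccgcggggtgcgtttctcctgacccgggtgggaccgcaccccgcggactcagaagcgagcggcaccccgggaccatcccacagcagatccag
SDHD: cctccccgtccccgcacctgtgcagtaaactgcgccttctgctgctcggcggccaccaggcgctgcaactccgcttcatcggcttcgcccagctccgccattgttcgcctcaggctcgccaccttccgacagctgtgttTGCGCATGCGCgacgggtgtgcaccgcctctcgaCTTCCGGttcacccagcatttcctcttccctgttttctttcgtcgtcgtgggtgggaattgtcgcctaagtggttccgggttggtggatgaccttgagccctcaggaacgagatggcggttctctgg
NDUFB4: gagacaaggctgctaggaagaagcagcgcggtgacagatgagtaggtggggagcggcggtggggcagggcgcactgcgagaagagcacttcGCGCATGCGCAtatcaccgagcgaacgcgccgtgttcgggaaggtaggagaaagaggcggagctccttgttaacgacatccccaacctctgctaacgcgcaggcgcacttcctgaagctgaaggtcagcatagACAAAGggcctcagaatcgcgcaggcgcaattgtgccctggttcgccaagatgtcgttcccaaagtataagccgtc

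In GFP libraries the 2 genomes differed most in level. Per kilobase of exon (GENCODE 29 gene models, GRCh38), the 13 mitochondrial mRNAs had a median of 71094 normalised counts and 76 nuclear members a median of 234. Counted by gene, the highest mitochondrial level was that of MT-CO1, the catalytic subunit of complex IV, at 147764 ± 3287 (SD, n = 3). The lowest was that of MT-ATP8 at 20114 ± 1162. The MT-ATP8 model has 207 bases, of which 22.2% are shared with MT-ATP6, so its level is uncertain. MT-ND4L and MT-ND4 overlap as well, so the 13, called mRNAs here by gene, need not be 13 separate messages. The nuclear members highest per kilobase were NDUFS5, an accessory subunit of complex I, at 3077 ± 335, and ATP5F1B, the catalytic beta subunit of ATP synthase, at 2850.4 ± 34.6. COX7C (1239 ± 58.5), COX6B1 (1142 ± 86.8) and NDUFB7 (1021 ± 91.9) followed. NDUFS5 and ATP5F1B did not differ beyond their SDs, nor did COX7C from COX6B1 or COX6B1 from NDUFB7. Levels per kilobase depend on the gene model: the NDUFS1 model sums to 12268 bases of exon, so its level per kilobase is set low by construction. Library preparation selected poly(A) tails, which most mitochondrial mRNAs carry in short form, so the gap between the 2 genomes is one of this assay. MT-ND6 had rank 3 of the 13 at 90845 ± 8129, though reads of the opposite strand may be counted on it.

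Each line was compared with GFP over 18828 features by limma on log2(value + 1), with Benjamini-Hochberg adjustment over all of them. With Oct4, 28 of 94 members changed (14 higher, 14 lower), where 37.3% of all features did (20.1% higher, 17.2% lower). With Sox2, 36 changed (21 higher, 15 lower) against 41.6% (21.7% higher, 19.9% lower). With Klf4, 26 changed (25 higher, 1 lower) against 33.5% (17.6% higher, 16.0% lower), and with OSK 23 changed (21 higher, 2 lower) against 39.7% (19.7% higher, 20.0% lower). With this filter the shares of members changed were below the background in every line, and in the Klf4 and OSK lines nearly all changes were rises. The order of members and background depended on the filter. With no filter, 22, 28, 19 and 20 of 101 members changed with Oct4, Sox2, Klf4 and OSK, above the 11.97%, 13.9%, 10.5% and 13.1% of all features called. With a mean value of at least 1, 26, 32, 26 and 19 of 99 changed, against 22.9%, 26.1%, 20.5% and 24.4%, so that only OSK lay below. The balance with Sox2 also turned: 17 were higher and 20 lower without GFP replicate 1, 17 and 18 with TMM scaling that left out the members and the mitochondrial genes, and 14 and 16 with DESeq2. The even split with Oct4 moved both ways. It was 14 higher and 18 lower without GFP replicate 1, 13 and 8 without GFP replicate 2, and 11 and 17 with DESeq2. Without GFP replicate 1 the falls with Klf4 and OSK were 4 each, beside 23 and 21 rises. All 4 comparisons use the same GFP libraries and are not independent. Changes were small. The largest that passed were COX7A1 with Oct4 (2.54 on the log2 scale), NDUFV2 with Sox2 (-1.05), and COX6B2 with Klf4 (4.46) and with OSK (2.57). The median absolute log2 change was 0.15 to 0.20 over the members and 0.34 to 0.41 over all features. Members and all features were not matched in level, and the part of level in this gap was not tested. The counts rest on pairs of libraries. Without Oct4 replicate 2 the Oct4 count was 17, without Sox2 replicates 1 and 2 it was 16 and 22, without Klf4 replicate 1 it was 9 (all higher), and without OSK replicates 1 and 2 it was 12 and 9, and the share of all features called fell as well in each case, to between 23.5% and 33.0%. Leaving out GFP replicate 1 and OSK replicate 1 together, an alternative chosen after seeing the data, gave 32, 35, 24 and 16, of which 14, 17, 21 and 15 were higher.

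**Figure D1:**
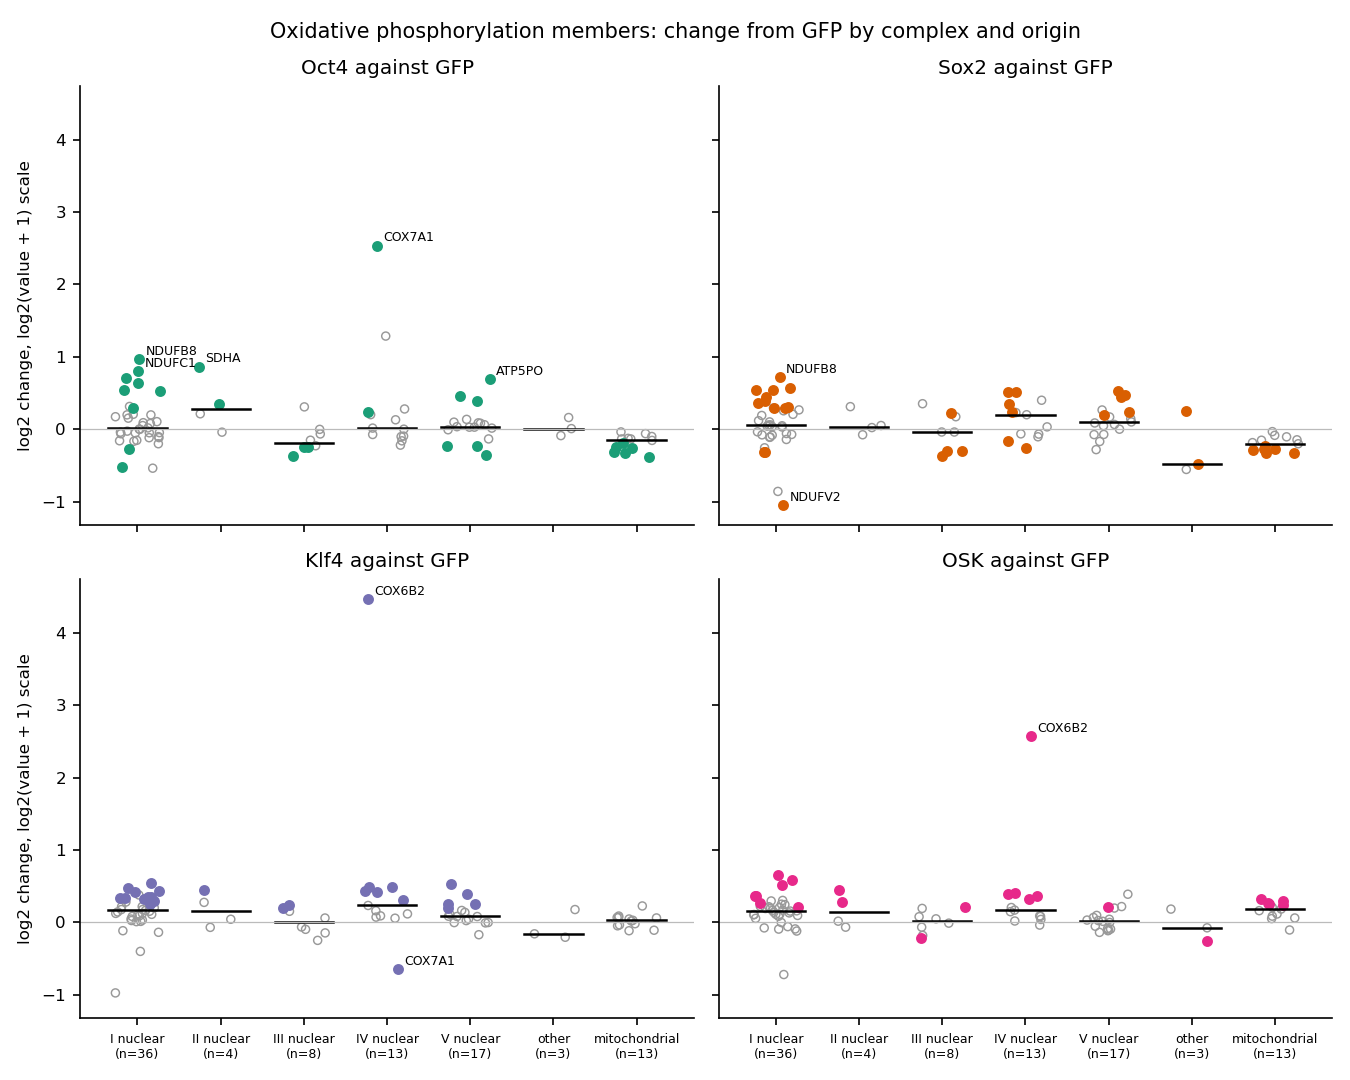
Log2 change from GFP of the 94 members that passed the filter, in 4 panels, 1 per line, grouped on the x axis by complex and origin; filled points passed an adjusted p of 0.05 (limma), open points did not, and black bars are medians. Nearly all members lie within a log2 change of 1, with COX7A1 in the Oct4 line and COX6B2 in the Klf4 and OSK lines far outside, and the mitochondrial mRNAs lie below 0 with Oct4 and Sox2 and mostly above 0 with OSK.

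The mitochondrial mRNAs moved in opposite directions in different lines. They took 4.62% and 4.59% of all reads with Oct4, 4.55% and 4.90% with Sox2, 5.52% and 5.40% with Klf4 and 6.21% and 6.27% with OSK, against 5.63%, 5.23% and 5.34% with GFP. The Oct4 and Sox2 libraries lay below every GFP library, the OSK libraries above them, and the Klf4 libraries among them. With 2 libraries against 3 an exact two-sided permutation test cannot go below p = 0.2, which the Oct4, Sox2 and OSK shares reached. In bulk samples, fewer cells of a type and less RNA per cell cannot be told apart. Per read on the nuclear members, the mitochondrial mRNAs had 12.6 to 13.3 reads over the GFP libraries, 11.5 to 11.8 with Oct4, 10.7 to 11.4 with Sox2, 12.3 to 12.6 with Klf4 and 13.9 to 14.0 with OSK. The 2 ribosomal RNAs of the same genome, MT-RNR1 and MT-RNR2, followed the mRNAs in part: their share was 0.797% ± 0.095 (SD, n = 3) with GFP, 0.589% ± 0.023 with Oct4, 0.473% ± 0.011 with Sox2, 0.629% ± 0.056 with Klf4 and 0.628% ± 0.003 with OSK (n = 2 each). GFP replicate 1 was highest at 0.905%, and the 4 lines all lay below every GFP library. Sox2 and Oct4 had the lowest share of rRNA as of mRNA, while Klf4 and OSK lay below GFP in rRNA but not in mRNA. As the libraries were selected for poly(A) tails, the rRNA share also depends on capture and need not follow the rRNA level.

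**Figure D2:**
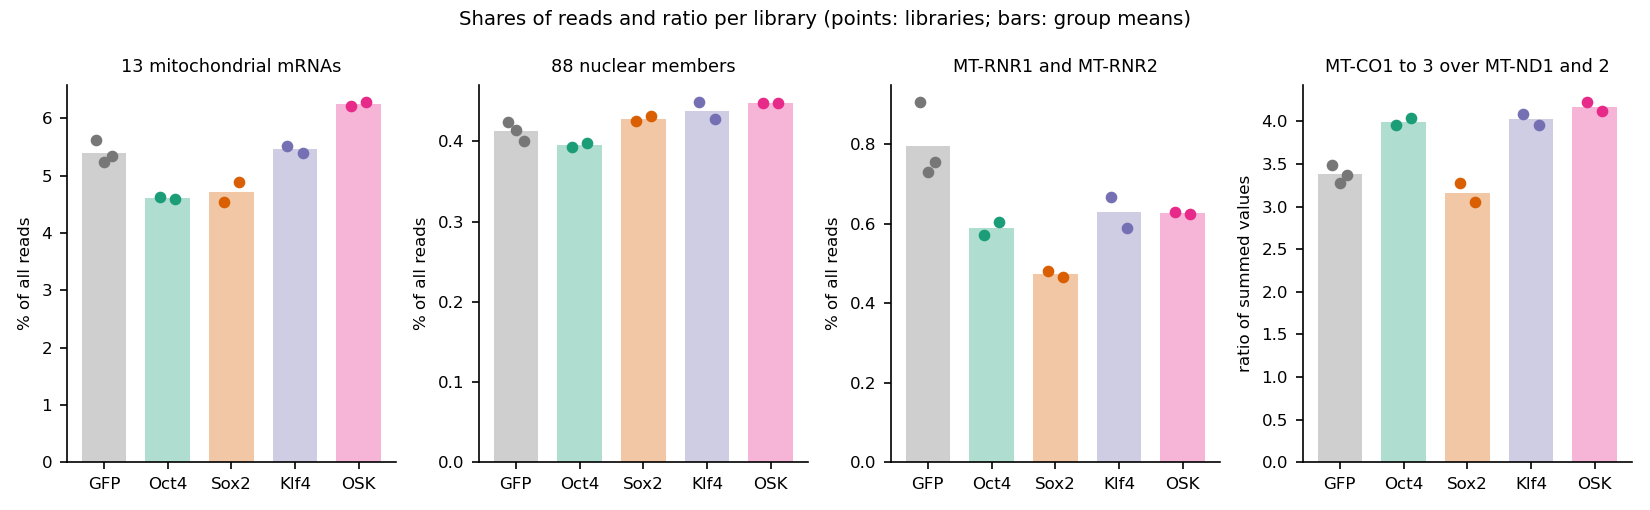
Share of all reads taken by the 13 mitochondrial mRNAs, by the 88 nuclear members and by the 2 mitochondrial rRNAs, in %, and the ratio of summed MT-CO1 to MT-CO3 over MT-ND1 and MT-ND2; points are libraries and bars group means from 0. The mRNA share is lowest with Oct4 and Sox2 and highest with OSK, while the rRNA share is highest with GFP.

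By gene, 6 of the 13 mitochondrial mRNAs fell with Oct4 and 6 with Sox2, 0 changed with Klf4, and 5 rose with OSK. Of all features, 17.2% fell with Oct4, 19.9% fell with Sox2, 33.5% changed with Klf4 and 19.7% rose with OSK. With Klf4 limma gave 0 at an unadjusted p of 0.05 as well, while edgeR and DESeq2 each called 1, higher. Their median log2 changes were -0.16, -0.20, 0.03 and 0.19, where the median of all features lay between -0.02 and -0.01. MT-ND1 and MT-ND2, the first subunits of complex I along the genome, fell most with Oct4. MT-ND2 had 52773, 52753 and 52019 normalised counts with GFP and 41289 and 38841 with Oct4 (log2 change -0.39, SE 0.08, limma adjusted p = 0.00124). MT-ND1 had 45080.0, 50016 and 50235 with GFP and 38430.4 and 38621 with Oct4 (log2 change -0.33, SE 0.08, limma adjusted p = 0.00521). In both, the Oct4 libraries lay below all GFP libraries. The ATP synthase mRNAs MT-ATP8 (log2 change -0.31, limma adjusted p = 0.00292) and MT-ATP6 (-0.26, limma adjusted p = 0.0453) fell as well, as did MT-ND4L (-0.24) and MT-ND3 (-0.19). The gene models of MT-ATP8 and MT-ATP6 overlap on the same strand, so their falls may be those of 1 message. MT-ND2 and MT-ATP8 passed under all 23 alternatives. MT-ND1 was lost only when the fit held no other groups (limma adjusted p = 0.0682). In that fit MT-ND3, MT-ND4L and MT-ATP6 were lost as well and 2 falls remained, while DESeq2 called 10 falls. MT-ND4L was lost without either Oct4 replicate or GFP replicate 3 (limma adjusted p up to 0.203), MT-ND3 without either replicate of Oct4, Sox2 or OSK or GFP replicate 2 (up to 0.24), and MT-ATP6 without either replicate of Oct4, Klf4 or OSK or GFP replicates 2 or 3 (up to 0.197).

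With Sox2 the mRNAs of complex IV fell together. MT-CO1 had 226636, 223502 and 233417 normalised counts with GFP and 180347 and 183147 with Sox2 (log2 change -0.33, SE 0.11, limma adjusted p = 0.0267). MT-CO2, which takes the electrons from cytochrome c, had 49905, 48436 and 47545 with GFP and 38711 and 40717 with Sox2 (log2 change -0.29, SE 0.08, limma adjusted p = 0.0084). MT-CO3 had 64928, 64972 and 63021 with GFP and 51204 and 51474 with Sox2 (log2 change -0.32, SE 0.08, limma adjusted p = 0.0041). The Sox2 libraries lay below every GFP library for all 3. MT-ND1 (-0.27), MT-ND4L (-0.24) and MT-ATP8 (-0.27) also fell, and MT-ND2 did not pass (-0.19, limma adjusted p = 0.0802). Without Sox2 replicate 1, which was lower than replicate 2 in all 13 mRNAs, 1 of the 6, MT-CO3, passed, and the median change was -0.13. When the fit held no other groups 1 of the 6, MT-ATP8, passed, and MT-CO1, MT-CO2, MT-CO3, MT-ND1 and MT-ND4L were lost (limma adjusted p = 0.269, 0.0845, 0.0787, 0.129 and 0.0816). With the replicate block 3 passed. MT-CO1 was also lost without Sox2 replicate 2, GFP replicate 3 or either OSK replicate (limma adjusted p up to 0.107), and MT-ND1 and MT-ND4L without GFP replicate 3 (0.0501 and 0.0586). Without Sox2 replicate 2 the median was -0.30.

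With OSK the same complex IV mRNAs were higher than with GFP: MT-CO1 at 277916 and 278987 normalised counts (log2 change 0.29, SE 0.11, limma adjusted p = 0.0488), MT-CO2 at 59966 and 61331 (log2 change 0.32, SE 0.08, limma adjusted p = 0.005) and MT-CO3 at 77016 and 77313 (log2 change 0.26, SE 0.08, limma adjusted p = 0.0166). MT-CYB, the cytochrome b of complex III, was 118854 and 122489 against 101619.6, 100709 and 100695 (log2 change 0.26, SE 0.09, limma adjusted p = 0.0391), and MT-ND3 was 17618 and 17909 against 15232, 15417 and 14315 (log2 change 0.25, SE 0.07, limma adjusted p = 0.00782). In each of these 5 both OSK libraries exceeded all GFP libraries. Without OSK replicate 1 a single member, MT-CO2, passed, without OSK replicate 2 there were 0, and when the fit held no other groups 1. MT-CO1 and MT-CYB were lost without any 1 library other than GFP replicate 1 (limma adjusted p up to 0.244 and 0.227). Without GFP replicate 1 there were 6 rises and 1 fall. With Klf4, MT-CO1 lay above all GFP libraries at 273637 and 260124 but did not pass (log2 change 0.23, SE 0.11, limma adjusted p = 0.132), and the other 12 had log2 changes from -0.11 to 0.09. MT-ND6, the only member on the light strand, did not pass in any line, with log2 changes of -0.04, -0.03, 0.07 and 0.19. The use of strand in counting is not given in the sources used here, so reads of the opposite strand may be counted on MT-ND6.

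**Figure D3:**
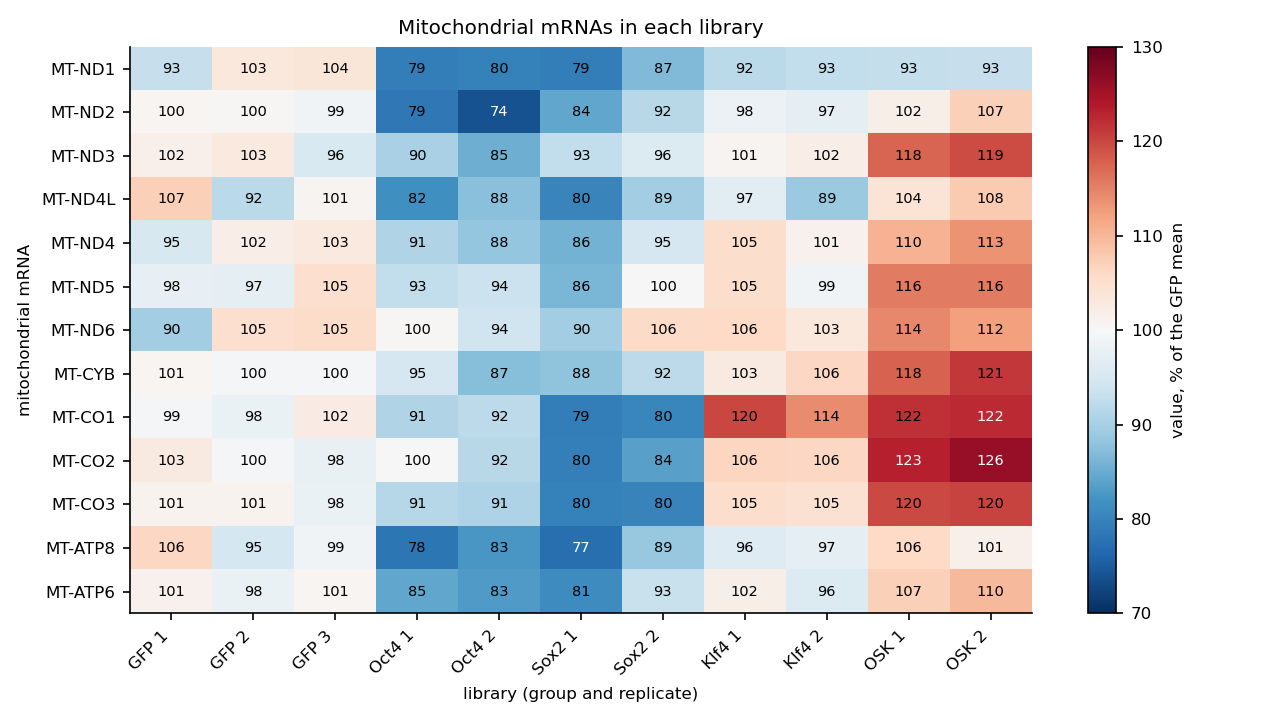
Each of the 13 mitochondrial mRNAs (rows) in each of the 11 libraries (columns), as % of the mean of the 3 GFP libraries; blue is lower and red is higher. The Oct4 and Sox2 columns are mostly blue, MT-CO1 to MT-CO3 are lowest with Sox2, and MT-CO1 to MT-CO3 and MT-CYB are highest with OSK.

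Within the mitochondrial mRNAs the balance also differed between lines. The summed value of MT-CO1 to MT-CO3 over that of MT-ND1 and MT-ND2 was 3.38 ± 0.11 (SD, n = 3) with GFP, 3.99 ± 0.06 with Oct4, 3.16 ± 0.15 with Sox2, 4.02 ± 0.10 with Klf4 and 4.17 ± 0.07 with OSK (n = 2 each). The Oct4, Klf4 and OSK libraries lay above, and the Sox2 libraries below, all GFP libraries. For Sox2 the gap was narrow, 3.27 in Sox2 replicate 1 against 3.28 in GFP replicate 2. This ratio was not planned. It is made of mRNAs singled out above and leaves out the other ND mRNAs, so it restates those changes and is no separate support. As a share of the 13 mRNAs, MT-ND1 was 5.23% with GFP and 4.65%, 5.03%, 4.58% and 4.22% with Oct4, Sox2, Klf4 and OSK. MT-CO1 was 24.6%, 25.2%, 22.8%, 27.3% and 26.1% in the same order.

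Among 36 nuclear members of complex I, the NADH dehydrogenase, 7 rose and 2 fell with Oct4, 10 and 3 changed so with Sox2, 11 rose with Klf4, and 7 rose with OSK. Beside this and the counts of the other complexes, 20.1% of all features rose and 17.2% fell with Oct4. The shares were 21.7% and 19.9% with Sox2, 17.6% and 16.0% with Klf4, and 19.7% and 20.0% with OSK. The complex I rises with Oct4 and OSK, at 19.4% each, were near these. NDUFS1, the largest subunit, carries iron-sulfur clusters in the arm that takes electrons from NADH. It had 1831, 1728 and 1819 normalised counts with GFP, 2766 and 2802 with Oct4, 2289.9 and 2404 with Sox2, 2186 and 2227 with Klf4 and 2544 and 2591 with OSK. All 8 libraries of the 4 lines exceeded the GFP libraries, with log2 changes of 0.64, 0.39, 0.30 and 0.52 (limma adjusted p = 5.74e-07, 7.95e-05, 0.00119 and 4.7e-06). NDUFB1, a small accessory subunit of the membrane arm, had 275, 348 and 297 with GFP, 437 and 570.0 with Oct4, 374 and 384 with Sox2, 426 and 427 with Klf4 and 498 and 466 with OSK. It was likewise above every GFP library in all lines (log2 change 0.71, 0.31, 0.48 and 0.66), and with Sox2 it lay just inside the threshold (limma adjusted p = 0.0499). Among other core subunits of the nuclear genome, NDUFS3 and NDUFV1 passed in no line, NDUFS7 rose with Klf4 (0.32) and NDUFS8 fell with Oct4 (-0.27). NDUFS7 shares 49.1% of its exon bases with other gene models, so its reads are uncertain.

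With Oct4 the largest complex I rises were in accessory subunits. NDUFC1 had 224, 237 and 205 normalised counts with GFP and 370.4 and 405 with Oct4 (log2 change 0.80, SE 0.11, limma adjusted p = 3.91e-05). NDUFB8 had 65.5, 70.8 and 52.5 with GFP and 123 and 124 with Oct4 (log2 change 0.97, SE 0.19, limma adjusted p = 0.000634). NDUFB8 shares 48.5% of its exon bases with other genes, HIF1AN among them, so its reads are uncertain. NDUFB10, another membrane arm subunit, went the other way, from 765, 794 and 764 with GFP to 569 and 508 with Oct4 (log2 change -0.52, SE 0.08, limma adjusted p = 5.27e-05). For these 3 genes the Oct4 and GFP libraries did not overlap, and the calls held under all 23 alternatives.

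With Sox2 the complex I rises included other accessory subunits. NDUFA5 had 925, 919.6 and 894 normalised counts with GFP and 1347 and 1362 with Sox2 (log2 change 0.57, SE 0.08, limma adjusted p = 1.93e-05). NDUFA12 had 380.3, 388 and 374 with GFP and 528 and 578 with Sox2 (log2 change 0.54, SE 0.09, limma adjusted p = 0.000227), and NDUFA1 had 346, 413 and 333 with GFP and 480.2 and 585 with Sox2 (log2 change 0.55, SE 0.11, limma adjusted p = 0.000942). NDUFA1 shares 44.5% of its exon bases with RNF113A. All 3 were above every GFP library, and their calls held under all 23 alternatives. NDUFB8 also rose (0.72), but not without Sox2 replicate 1 (limma adjusted p = 0.0881). NDUFA10 fell from 1687, 1647 and 1805 to 1389 and 1368 (log2 change -0.31, SE 0.07, limma adjusted p = 0.00259). The largest fall was in NDUFV2, a core subunit with an iron-sulfur cluster, at 38.7, 29.3 and 30.1 with GFP and 13.5 and 17.1 with Sox2 (log2 change -1.05, SE 0.40, limma adjusted p = 0.0446). NDUFV2 was counted at few reads, shares 28.4% of its exon bases with another gene model, and its call was lost in 14 of 23 alternatives, among them edgeR, DESeq2, and the fits without any 1 of the GFP, Sox2 or Klf4 replicates (limma adjusted p up to 0.218).

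With Klf4 the 11 rises in complex I included NDUFB1, NDUFA12, NDUFA6 and NDUFA5 (0.48, 0.36, 0.34 and 0.34 on the log2 scale). NDUFA9, an accessory subunit with a bound nucleotide, had the largest fitted change but uneven libraries, at 197 and 128 against 106, 103 and 118 with GFP (log2 change 0.54, SE 0.20, limma adjusted p = 0.0463). Its call was lost without Klf4 replicate 1 (limma adjusted p = 0.519) and without any 1 of the GFP or Oct4 replicates. With OSK, NDUFB8 (0.59), NDUFA11 (0.36) and NDUFB9 (0.36) rose beside NDUFS1 and NDUFB1. The NDUFB8 call was lost without OSK replicate 1 or 2 and without GFP replicate 3 (limma adjusted p = 0.0959, 0.0806 and 0.0745). NDUFB4, whose window holds the NRF1 core, passed in no line, with log2 changes from -0.15 to 0.17.

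Complex II, succinate dehydrogenase, is also an enzyme of the tricarboxylic acid (TCA) cycle. SDHA, its flavoprotein, had 197, 189 and 216 normalised counts with GFP, 382 and 349 with Oct4, 257 and 241 with Sox2, 208 and 283 with Klf4 and 269 and 276 with OSK. It rose with Oct4 (log2 change 0.86, SE 0.13, limma adjusted p = 6.64e-05) and with OSK (log2 change 0.44, SE 0.13, limma adjusted p = 0.0125), the latter not without either OSK replicate (limma adjusted p = 0.0554 and 0.0802). Near-identical SDHA pseudogenes exist, so its count is uncertain. SDHB, the iron-sulfur subunit, passed in no line, with log2 changes from -0.08 to 0.04. SDHC, a membrane anchor, rose with Oct4 from 1233, 1362 and 1299.7 to 1624 and 1684 (log2 change 0.35, SE 0.07, limma adjusted p = 0.00092), its sole call among the 4 lines. SDHD, the other anchor, had 471, 427 and 435 with GFP, 682 and 538 with Klf4 and 565 and 514 with OSK. It rose with Klf4 (log2 change 0.45, SE 0.11, limma adjusted p = 0.00367) and marginally with OSK (log2 change 0.28, SE 0.11, limma adjusted p = 0.0472). The Klf4 call was lost without Klf4 replicate 1 (limma adjusted p = 0.106), and the OSK call in 15 of 23 alternatives, including without any 1 of the Oct4, Sox2 or OSK replicates or GFP replicates 2 and 3 (limma adjusted p up to 0.281). In all, 2 of the 4 subunits rose with Oct4, 1 with Klf4 and 2 with OSK, while with Sox2 the log2 changes, from -0.08 to 0.31, did not pass.

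In complex III, which moves electrons from ubiquinol to cytochrome c, 0 of 8 nuclear subunits rose and 3 fell with Oct4, 1 rose and 3 fell with Sox2, 2 rose with Klf4, and 1 rose and 1 fell with OSK. UQCRB, a small subunit near the quinone site, had 2390.2, 2329 and 2145 normalised counts with GFP, 1769.6 and 1753 with Oct4 and 1860.2 and 1840.1 with Sox2. Both lines lay below every GFP library (log2 change -0.38, SE 0.07, limma adjusted p = 0.000372, and -0.30, limma adjusted p = 0.00173). UQCRH, the hinge protein, had 1131, 1277 and 1085 with GFP, 850.5 and 948 with Sox2, 964 and 991 with Oct4 and 995 and 1009 with OSK. The fall with Sox2 (log2 change -0.37, SE 0.08, limma adjusted p = 0.00139) held under all 23 alternatives. Those with Oct4 (-0.25, limma adjusted p = 0.0232) and OSK (-0.21, limma adjusted p = 0.0458) were lost in 5 and 14 of 23, among them the fits without GFP replicate 2, without either Oct4 replicate and, for OSK, without either OSK or Klf4 replicate (limma adjusted p up to 0.125 and 0.182). UQCRHL, an intronless copy of UQCRH, had 43.7, 52.6 and 45.7 with GFP and may share reads with it; it passed in no line. UQCRC1, a core protein of the matrix side, rose with Klf4 (0.20) and OSK (0.22), and UQCRC2 with Klf4 (0.23). UQCRFS1, the Rieske iron-sulfur protein, fell with Oct4 (-0.25) and Sox2 (-0.30). CYC1, the cytochrome c1 of this complex, does not match the member rule and rose with Klf4 (0.40, limma adjusted p = 0.00147).

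Complex IV, cytochrome c oxidase, held the largest changes, in isoforms of nuclear subunits. COX7A1 is the isoform of subunit VIIa known from heart and skeletal muscle, and COX7A2 is the broadly expressed one. COX7A1 had 91.4, 96.1 and 100.1 normalised counts with GFP, 520.2 and 603 with Oct4, 134 and 141 with Sox2, 60.1 and 61.7 with Klf4 and 141 and 86.9 with OSK. The Oct4 libraries stood far above all others and the Klf4 libraries below all GFP libraries, while the OSK libraries were on either side of GFP. The mean with Oct4 was 5.86 times that of GFP (log2 change 2.54, SE 0.18, limma adjusted p = 1.82e-08), a call that held under all 23 alternatives. The rise with Sox2 (log2 change 0.52, SE 0.18, limma adjusted p = 0.0306) was lost without either Sox2 replicate and without the first or second GFP replicate (limma adjusted p = 0.0908, 0.147, 0.058 and 0.0565). The fall with Klf4 (log2 change -0.64, SE 0.18, limma adjusted p = 0.0112) was lost without Klf4 replicate 1 (limma adjusted p = 0.0643). COX7A2 had 725, 784 and 731 with GFP, 889 and 865 with Oct4, 949 and 949.6 with Sox2, 1054 and 1046 with Klf4 and 946 and 1016 with OSK. It rose in every line (0.23, 0.35, 0.49 and 0.39 on the log2 scale), the Oct4 rise not without either Oct4 replicate (limma adjusted p = 0.101 and 0.0534). Per length, COX7A1 stood at 0.246 ± 0.014 of COX7A2 with GFP (SD, n = 3), 1.22 ± 0.15 with Oct4, 0.276 ± 0.011 with Sox2, 0.111 ± 0.003 with Klf4 and 0.224 ± 0.086 with OSK (n = 2 each). The level of this ratio depends on the gene models, which sum to 1006 bases of exon for COX7A1 and 1922 for COX7A2. In normalised counts COX7A1 stayed below COX7A2 in both Oct4 libraries. Of 8 muscle markers, 5 passed the filter and none of these changed with Oct4. Their summed level was 68.7 to 115.0 with Oct4 and 35.4 to 193.6 with GFP, and MYH7 and TNNT3 were at 0 in both Oct4 libraries.

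**Figure D4:**
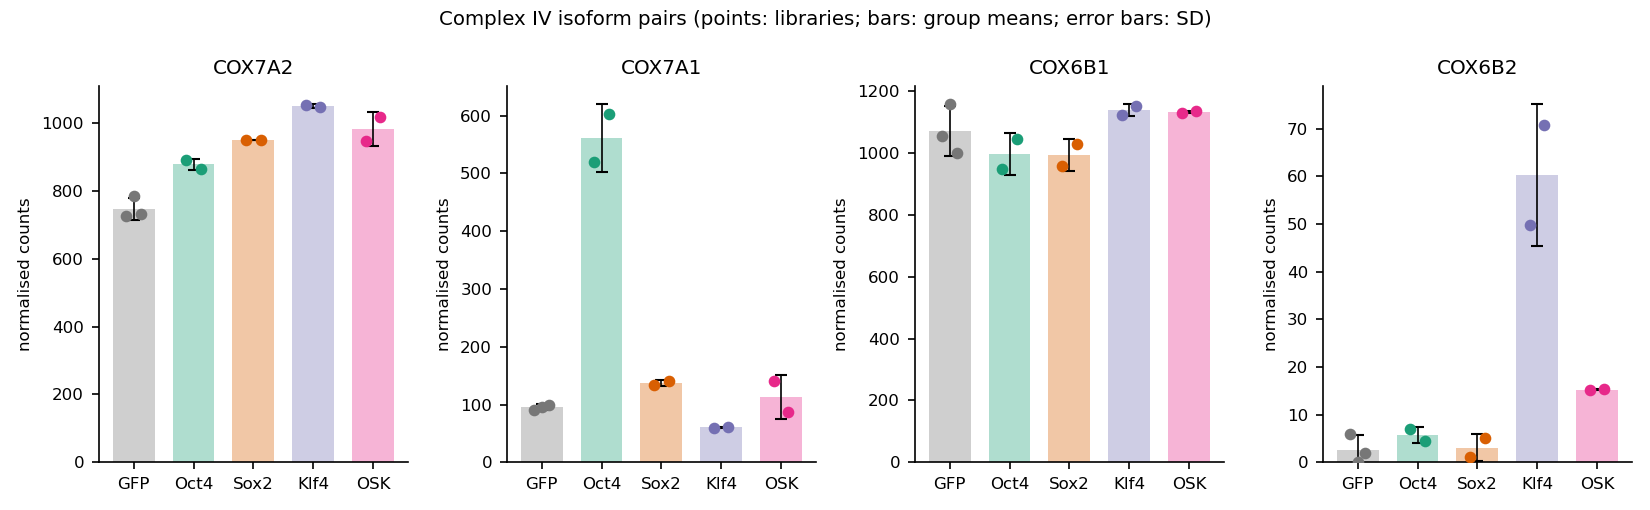
Normalised counts of 2 isoform pairs of complex IV by group; points are libraries, bars group means from 0 and error bars SDs, with a y axis of its own in each panel. COX7A1 is highest with Oct4 and lowest with Klf4, COX6B2 is highest with Klf4, and their partners COX7A2 and COX6B1 vary far less.

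COX6B2 is an isoform of subunit VIb known from testis, and COX6B1 its general partner. COX6B2 had 5.96, 0 and 1.94 normalised counts with GFP, 6.97 and 4.58 with Oct4, 1.12 and 5.14 with Sox2, 49.7 and 70.8 with Klf4 and 15.2 and 15.4 with OSK. The Klf4 and OSK libraries exceeded all GFP libraries, and Klf4 exceeded OSK. The fitted log2 changes, which depend on the pseudocount at such low GFP levels, were 4.46 (SE 0.76, limma adjusted p = 0.000255) and 2.57 (SE 0.76, limma adjusted p = 0.0129). Over the alternatives they ran from 3.15 to 5.14 and from 1.49 to 3.26. The OSK call was lost without either OSK replicate and when the fit held no other groups (limma adjusted p up to 0.0769). COX6B1 passed in no line, at 1053, 1157 and 997 with GFP and 1123 and 1151 with Klf4. Per length, COX6B2 was 0.013 ± 0.003 of COX6B1 with Klf4 (SD, n = 2), and it was far below COX6B1 in normalised counts too, so it remained a minor isoform in mRNA. The gene models behind this ratio sum to 3815 bases of exon for COX6B2 and 936 for COX6B1. COX6B2 shares 30.9% of its exon bases with another gene model.

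Among the other nuclear subunits of complex IV, COX4I1, which takes part in its regulation by ATP, had 3324, 3622 and 3374 normalised counts with GFP, 3033 and 3115 with Oct4, 3139 and 2993 with Sox2, 4343 and 4145 with Klf4 and 4316 and 4307 with OSK. The Klf4 and OSK libraries lay above, and the Oct4 and Sox2 libraries below, all GFP libraries. The rise with Klf4 (log2 change 0.30, SE 0.06, limma adjusted p = 0.00137), like that with OSK (log2 change 0.33, SE 0.06, limma adjusted p = 0.000566), held under all 23 alternatives. The fall with Sox2 (-0.17, limma adjusted p = 0.046) was lost in 17 of 23, among them the fits without any 1 library other than GFP replicate 1 (limma adjusted p up to 0.266). Its isoform COX4I2 had 33.8, 0 and 0 with GFP and at most 2.20 elsewhere, so its reads were almost all in the library with the most features detected. COX6A1 rose with Klf4 (log2 change 0.50, SE 0.10, limma adjusted p = 0.000783), as it did with OSK (log2 change 0.41, SE 0.10, limma adjusted p = 0.00264), and its muscle isoform COX6A2 had at most 5.14 normalised counts in any library. COX8A, the smallest subunit, rose with Sox2 (log2 change 0.51, SE 0.12, limma adjusted p = 0.00263) and with Klf4 (0.42, limma adjusted p = 0.014), the latter not without Klf4 replicate 1 (limma adjusted p = 0.246). COX8A shares 34.5% of its exon bases with another gene model. COX8C had at most 6.95 and COX7B2 at most 0.990, while COX7B passed in no line. NDUFA4, first assigned to complex I and now placed in complex IV, rose with Sox2 (0.23, limma adjusted p = 0.0296), but not without either Sox2 replicate (limma adjusted p = 0.173 and 0.0778) or without GFP replicate 1 or 3 (0.064 and 0.0542). Its paralog NDUFA4L2, known as a gene of the hypoxia response, had 22.8, 1.01 and 7.78 with GFP and passed in no line. Over the 13 nuclear members tested, 2 rose with Oct4, 4 rose and 2 fell with Sox2, 6 rose and 1 fell with Klf4, and 5 rose with OSK.

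In complex V, ATP synthase, 3 of 17 nuclear members rose and 3 fell with Oct4, 5 rose with Sox2, 5 with Klf4 and 1 with OSK. The catalytic head fell with Oct4: ATP5F1B had 6687, 6530.2 and 6638 normalised counts with GFP, 5739 and 5556 with Oct4, 8157 and 7604 with Klf4 and 7547 and 7772 with OSK. It was below all GFP libraries with Oct4 (log2 change -0.23, SE 0.06, limma adjusted p = 0.00736) and above them with Klf4 (log2 change 0.25, SE 0.06, limma adjusted p = 0.00451), as with OSK (log2 change 0.21, SE 0.06, limma adjusted p = 0.0115). ATP5F1A, the alpha subunit, fell with Oct4 by 0.23 on the log2 scale (limma adjusted p = 0.00659). ATP5F1D, of the central stalk, fell with Oct4 (-0.36, limma adjusted p = 0.0212) and rose with Klf4 (0.39, limma adjusted p = 0.0137). The ATP5F1D fall was lost without Oct4 replicate 2 (limma adjusted p = 0.291) or GFP replicate 2 (0.0905). ATP5F1E, its neighbour in the stalk, had 828, 852 and 771 with GFP, 1129 and 1107 with Oct4 and 1125 and 1129 with Sox2, above all GFP libraries (log2 change 0.45 and 0.46, limma adjusted p = 0.000173 and 0.000107). ATP5PO, the peripheral stalk subunit that confers oligomycin sensitivity, had 187, 170.0 and 168 with GFP and 308 and 261 with Oct4 (log2 change 0.69, SE 0.12, limma adjusted p = 0.000347). ATP5PF, another peripheral stalk subunit, had 639, 706 and 679 with GFP and 884 and 946 with Sox2 (log2 change 0.44, SE 0.08, limma adjusted p = 0.000265). ATP5F1E, ATP5PO and ATP5PF share 23.18%, 25.45% and 23.05% of their exon bases with other gene models, so their reads are uncertain too. ATP5ME rose with Sox2 (0.52, limma adjusted p = 0.02) and Klf4 (0.53, limma adjusted p = 0.0223). It shares 61.6% of its exon bases with MYL5, and both calls were lost without either replicate of the line or without GFP replicate 3 (limma adjusted p up to 0.0905 and 0.131).

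ATP5MC1, ATP5MC2 and ATP5MC3 encode the same mature c subunit of the rotor with different import sequences. ATP5MC1 passed in no line. ATP5MC2 had 1175, 1466 and 1548 normalised counts with GFP and 1752 and 1874 with Oct4 (log2 change 0.39, SE 0.10, limma adjusted p = 0.00539), a call lost without Oct4 replicate 2 (limma adjusted p = 0.0666). ATP5MC3 had 1433, 1484 and 1461 with GFP and 1675 and 1676 with Klf4 (log2 change 0.20, SE 0.06, limma adjusted p = 0.02), lost without either Klf4 replicate (limma adjusted p = 0.0898 and 0.0862). Of the members that are no subunits, COX7A2L, which helps to join complexes III and IV into supercomplexes, had 1511, 1642 and 1649 with GFP, 1159 and 1128 with Sox2 and 1355 and 1335 with OSK. It fell with Sox2 (log2 change -0.48, SE 0.07, limma adjusted p = 2.04e-05) under all 23 alternatives, and with OSK (-0.25, limma adjusted p = 0.00672) under all but the fit without OSK replicate 2 (0.0554). ATP5IF1, the inhibitor of ATP hydrolysis by complex V, rose with Sox2 (0.25, limma adjusted p = 0.0245), but not without either Sox2 replicate or GFP replicate 1 (limma adjusted p = 0.0846, 0.132 and 0.0768).

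OSK was then compared directly with each single factor. POU5F1 averaged 67074 normalised counts with Oct4 and 19281 with OSK, and SOX2 29123 with Sox2 and 17673 with OSK. KLF4 averaged 23173 with Klf4 and 24336 with OSK. The OSK line thus had less POU5F1 and SOX2 mRNA than the single-factor lines. The part of this in the differences below was not tested. Against Oct4, 33 of 94 members differed (25 higher, 8 lower with OSK) where 40.3% of all features did (18.4% higher, 21.9% lower). Against Sox2, 33 differed (24 higher, 9 lower) where 40.5% did (20.0% higher, 20.5% lower). Against Klf4, 5 differed (3 higher, 2 lower) where 21.5% did (9.56% higher, 11.9% lower). Between Sox2 and Oct4, 25 differed, where 33.4% did. The first 3 of these comparisons share the OSK libraries. Without OSK replicate 1 or 2 the count against Sox2 was 21 and 14 and that against Klf4 was 1 and 2. Without Sox2 replicate 1 or 2 the count against Sox2 was 17 and 21, and against Klf4 it was 12 without GFP replicate 1 and 1 without Klf4 replicate 1. Of the mitochondrial mRNAs 11 of 13 were higher with OSK than with Oct4, 11 than with Sox2, and 1, MT-ND3, than with Klf4, and 0 were lower. The counts against Oct4 and Sox2 were 7 and 7 without OSK replicate 1 and 5 and 5 without OSK replicate 2. Against Oct4 it was 7 and 6 without Oct4 replicates 1 and 2, and against Sox2 it was 5 without Sox2 replicate 1. Without GFP replicate 1 and OSK replicate 1 there were 12 and 11.

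Against Oct4 the mean mitochondrial shift was largest in MT-ND2 (log2 change 0.45) and MT-ND3 (0.43), and against Sox2 in MT-CO1 (0.62), MT-CO2 (0.61) and MT-CO3 (0.59), all without overlap of libraries. The nuclear differences from Oct4 were led by COX7A1, lower with OSK (log2 change -2.33, SE 0.20, limma adjusted p = 1.14e-07), ATP5PO (-0.66) and NDUFC1 (-0.55), and by NDUFB10, higher with OSK (log2 change 0.72, SE 0.08, limma adjusted p = 4.1e-06), COX4I1 (0.49) and COX6A1 (0.48). From Sox2, ATP5F1E (-0.56), ATP5PF (-0.54) and NDUFA5 (-0.51) were lower with OSK, and NDUFA11 (0.67) and COX6B2 (2.17, lost in 15 of 23 alternatives) higher. The rises of single lines were thus not all present with OSK: ATP5F1E had 754 and 778 normalised counts and ATP5PO 168 and 190.3, both overlapping GFP. From Klf4, COX7A1 (0.85) and NDUFS1 (0.22) were higher and ATP5F1D (-0.48) and NDUFA5 (-0.28) lower. Single libraries decided each of these calls. COX7A1 was 0.51 without OSK replicate 1 (limma adjusted p = 0.102). NDUFS1 was lost without any 1 of the OSK or Klf4 replicates (limma adjusted p up to 0.149), as was MT-ND3 (up to 0.193). NDUFA5 was -0.17 without Klf4 replicate 1 (limma adjusted p = 0.308) and was lost without either OSK replicate, and ATP5F1D was lost without Klf4 replicate 1 or OSK replicate 2 (limma adjusted p = 0.126 and 0.116). COX6B2 was lower with OSK than with Klf4 in both libraries but did not pass (log2 change -1.89, SE 0.83, limma adjusted p = 0.128).

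Other genes of the pathway came from lists. Of all features, 20.1% rose and 17.2% fell with Oct4, and 21.7% and 19.9% with Sox2. The shares were 17.6% and 16.0% with Klf4, and 19.7% and 20.0% with OSK. Of 58 assembly factors, 13 rose and 9 fell with Oct4, 13 and 8 with Sox2, 8 and 2 with Klf4 and 6 and 4 with OSK. The rises of assembly factors with Oct4 and Sox2 were near the background in share. COA1, a factor of complexes I and IV, had 670.3, 697 and 697 normalised counts with GFP and 2196 and 2117 with OSK (log2 change 1.65, SE 0.07, limma adjusted p = 8.3e-11). SCO1, which delivers copper to complex IV, had 810.3, 882 and 908 with GFP and 1903 and 2036 with Oct4 (log2 change 1.18, SE 0.07, limma adjusted p = 3.93e-09). COX17, its copper chaperone, rose with Sox2 (1.04) and COA7 fell with it (-1.24). Of 19 electron carriers and genes of coenzyme Q synthesis, 3 rose and 3 fell with Oct4, 2 and 2 with Sox2, 6 and 1 with Klf4 and 4 and 1 with OSK. CYCS, cytochrome c, had 2331, 2351 and 2167 with GFP and 5391 and 5611 with Oct4 (log2 change 1.27, SE 0.07, limma adjusted p = 5.03e-10). Its log2 changes elsewhere were 0.02 to 0.15. Of 13 other TCA cycle genes, 3 rose and 1 fell with Oct4, 3 and 2 with Sox2, 4 and 0 with Klf4 and 6 and 1 with OSK. OGDH, a subunit of the 2-oxoglutarate dehydrogenase, rose with Klf4 (0.76) and OSK (0.87), and IDH3A with OSK (0.70).

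In each of 3 lists of the machinery of mitochondrial gene expression more genes fell than rose with Oct4 and with Sox2, though the genes that fell were a minority of each list. Over all features, 17.2% fell and 20.1% rose with Oct4, and 19.9% and 21.7% with Sox2. Of 20 nuclear regulators, 4 rose and 9 fell with Oct4, 3 and 7 with Sox2, 4 and 3 with Klf4 and 5 and 6 with OSK. PPARGC1A, the coactivator PGC-1alpha, had 371, 274 and 332 normalised counts with GFP, 121 and 109.9 with Oct4, 6.73 and 10.3 with Sox2, 298 and 253 with Klf4 and 196 and 199 with OSK. It was lowest with Sox2 (log2 change -5.12, SE 0.18, limma adjusted p = 6.79e-12) and also fell with Oct4 (-1.48) and OSK (-0.71). Its relative PPARGC1B had 69.5, 15.2 and 22.4 with GFP, 579 and 514 with Klf4 and 311 and 249 with OSK, a rise in both lines (log2 change 4.19, SE 0.50, limma adjusted p = 8.17e-06, and 3.22, limma adjusted p = 8.2e-05), and fell with Sox2 (-2.51). The highest GFP value of PPARGC1B was in replicate 1, the library with the most features detected. MYC, a driver of mitochondrial biogenesis among much else, fell with Sox2 (-1.25), and TFB1M, a methylase of mitochondrial rRNA, rose with OSK (1.14) and Sox2 (1.04). Of 20 tested genes of mitochondrial RNA processing, 1 rose and 5 fell with Oct4, 3 and 9 with Sox2, 2 and 5 with Klf4 and 3 and 4 with OSK. LRPPRC, which stabilises the mitochondrial mRNAs and their poly(A) tails, had 3392, 3361 and 3388 with GFP, 2081 and 2092 with Oct4, 2016 and 2166 with Sox2, 2924 and 2876 with Klf4 and 3053 and 3116 with OSK. The Oct4 and Sox2 values were the lowest (log2 change -0.70 and -0.69, limma adjusted p = 1.62e-07 and 1.24e-07), the same lines in which mitochondrial mRNAs fell, and whether these move together beyond that was not tested. MTPAP, the mitochondrial poly(A) polymerase, fell with Sox2 (-0.65) and OSK (-0.49), and FASTKD5 in all lines (-0.32 to -0.64). Of 77 tested mitochondrial ribosomal protein genes, 6 rose and 19 fell with Oct4, 11 and 18 with Sox2, 6 and 2 with Klf4 and 8 and 3 with OSK. The falls of these genes with Sox2 were near the background in share, and their median log2 change of -0.02 was close to that of all features. MRPS24 fell most with Oct4 (-1.97) and MRPL13 rose most with Sox2 (1.29).

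**Figure D5:**
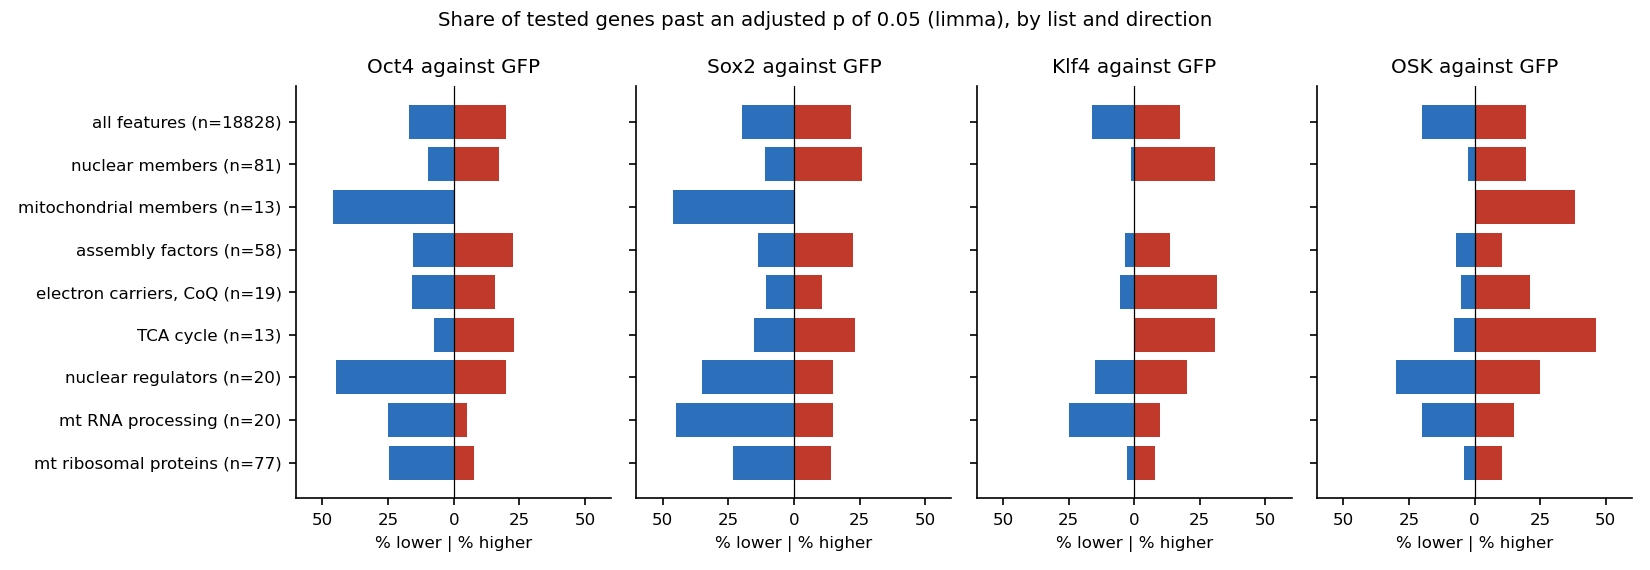
Share of tested genes that passed an adjusted p of 0.05 (limma), higher to the right in red and lower to the left in blue, for all features, the nuclear and mitochondrial members and 6 lists of related genes, with 1 panel per line. Of the nuclear members that changed, 25 of 26 with Klf4 and 16 of 18 with OSK were higher, the latter a share of all nuclear members (19.8%) close to that of all features (19.7%), and the mitochondrial members only fall with Oct4 and Sox2 and only rise with OSK.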

How the data were processed

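Poly(A) RNA was sequenced from 11 libraries in 5 groups. The deposited table holds normalised counts, a signal made by the authors by dividing each gene count by 1 factor per library; the submitters' processing notes name STAR 2.7.1a and featureCounts 1.6.2, while strand use is not given in the sources used here. Whole reads were recovered from these values in all 11 libraries. Features with at least 10 normalised counts in at least 2 libraries were tested by limma 3.58.1 (R 4.3.3) on log2(value + 1), in 1 fit over all libraries, with Benjamini-Hochberg adjustment and a threshold of 0.05; the script was tested on simulated data. Fold changes are on the log2(value + 1) scale and understate low genes. Alternatives used edgeR 4.0.16 and DESeq2 1.42.0 on recovered reads, other scalings, pseudocounts and filters, a replicate block, and each library left out. Depth limits low isoforms most.

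The members and lists were chosen with earlier results of these data known. Named were the mitochondrial mRNAs, the SDH subunits, isoform sets, up to 6 members with the largest rise and fall per line without overlap of libraries, up to 3 each way for OSK against a single factor, the highest levels per length, and up to 4 genes per list. Other genes, such as NDUFS7, NDUFS8, NDUFB4, UQCRC1, UQCRC2, UQCRFS1, CYC1, MTPAP and FASTKD5, were named after their values were seen.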

Additional observations from a re-analysis of the deposited data

Results flagged for a closer look

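Some members moved in opposite directions from GFP in different lines, and the direct limma test between those lines, which uses no GFP library in the contrast, passed without overlap of libraries. They were picked by calls from the same line libraries, so these tests were likely to pass and are no separate support. Some calls against GFP were often lost over the 23 alternatives: COX4I1 with Sox2 in 17, MT-CO1 with OSK in 14 and COX7A1 with Sox2 in 7. COX7A1 with Oct4 was lost in 0. COX7A1 was lower with Klf4 than with Oct4 (log2 difference -3.18, limma adjusted p = 2.57e-09) and than with Sox2 (-1.16, limma adjusted p = 0.000173). COX4I1 exceeded its Sox2 level by 0.47 in the Klf4 line (limma adjusted p = 4.14e-05). In the OSK line it did so by 0.49 (limma adjusted p = 2.72e-05), and NDUFA11 was higher with OSK than with Sox2 (0.67, limma adjusted p = 6.79e-05).

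In ATP synthase, ATP5F1B exceeded its Oct4 level by 0.48 in the Klf4 line (limma adjusted p = 2.33e-05). In the OSK line it did so by 0.44 (limma adjusted p = 6.13e-05), and ATP5F1D was higher with Klf4 than with Oct4 (0.75, limma adjusted p = 0.000133). Among the mitochondrial mRNAs, MT-ND3 was higher with OSK than with Oct4 (0.43, limma adjusted p = 0.000172). MT-CO1 (0.62, limma adjusted p = 0.000691), MT-CO2 (0.61, limma adjusted p = 4.01e-05) and MT-CO3 (0.59, limma adjusted p = 5.93e-05) were higher with OSK than with Sox2.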

How the results depend on the processing

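Of 111 changes of named members, 51 passed under all 23 alternatives, 60 were lost in at least 1 and 0 reversed. Replicate numbers did not pair the libraries: the correlation of replicate differences lay between -0.07 and 0.04 except for GFP and OSK (0.41), whose first replicates stood apart. With the replicate block, 23 members changed with Sox2, 15 with OSK, and 3 between OSK and Klf4. When the fit held no other groups, 14 changed with OSK, and DESeq2 gave 9 between OSK and Klf4. Over fits that left out libraries, the count of members changed from GFP was lowest at 17 and highest at 32 with Oct4. The bounds were 16 and 37 with Sox2, 9 and 27 with Klf4, and 9 and 25 with OSK. It ran from 14 to 38 for OSK against Sox2, 1 to 12 for OSK against Klf4, and 11 (without Sox2 replicate 2) to 35 for Sox2 against Oct4, where 25 members differed. Median log2 changes so obtained were 0.052 to 0.11 for nuclear and -0.30 to -0.13 for mitochondrial members with Sox2, and 0.10 to 0.19 for nuclear members with Klf4. Over reads on nuclear features other than the 100 most abundant, mitochondrial mRNAs stood at 6.93% with GFP, 5.92% with Oct4, 5.95% with Sox2, 7.05% with Klf4 and 7.98% with OSK. The causes of these shifts were not tested.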
